A study of Homo sapiens with 6 samples.

Results

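Nonsense-mediated decay (NMD) is a surveillance pathway that degrades mRNAs whose translation ends too early. The genes described here encode 9 of its factors, UPF1, UPF2, UPF3A, UPF3B, SMG1, SMG5, SMG6, SMG8 and SMG9. They were chosen by symbol, from the GENCODE release 29 names of the gene identifiers, and all 9 were found among the 58721 genes of the count table. Read counts per gene came from 6 RNA sequencing libraries of cleared detergent lysates, from which ribosomal RNA had been depleted without selection of poly(A) RNA. The wild type group held 3 libraries of HEK293T, an established line derived from embryonic kidney. The other 3 were from HEK293T cells in which ALKBH5 and FTO had both been knocked out with CRISPR/Cas9. Both genes encode enzymes that remove the methyl group of N6-methyladenosine (m6A) from RNA. All cells were lysed with cycloheximide, a drug that stalls ribosomes, and the RNA is described as cytoplasmic. The sources used here do not give how many clones stand behind the double knockout libraries, or whether the wild type cells were their parental line. Differences between lines or clones therefore cannot be told apart from the knockout.

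In NMD, the helicase UPF1 is recruited to a ribosome that stops at a premature termination codon. UPF2 and either UPF3A or UPF3B connect UPF1 to exon junction complexes that remain downstream of the stop codon. The kinase SMG1, held in check by SMG8 and SMG9, then phosphorylates UPF1. Phosphorylated UPF1 recruits SMG6, which cuts the mRNA near the stop codon, and SMG5, which leads to removal of the tail and the cap. Several of these factors are encoded by mRNAs that NMD itself degrades, so the pathway limits its own factors.

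Total counts per library lay between 5634648 and 7551825, and 14180 genes passed a filter on low counts. Values are given as CPM, counts per 1000000 counts on scaled library sizes. ALKBH5 and FTO were lower in the double knockout, at 76.0% and 53.7% of their wild type levels (edgeR adjusted p = 2.74e-22 and 4.00e-44), which does not check a small edit that leaves the RNA in place. Summed over 6 markers of the HEK293 line (PAX2, KRT8, KRT18, VIM, CDH2 and NEFM), CPM lay between 1013 and 1080 in wild type and between 1470 and 1478 in double knockout. VIM made up most of these sums, with means of 844 CPM in wild type and 1157 CPM in double knockout. All 6 were called higher in double knockout. None of these 6 was at 0, and the part of these marker shifts in the results was not tested. Haematopoietic, endothelial and hepatocyte markers summed to at most 2.31, 1.92 and 1.37 CPM in any library. Fibroblast markers summed to 16.4 to 19.4 CPM in wild type and 9.49 to 11.2 CPM in double knockout, with COL1A2 at 0 throughout. Among them COL1A1, COL3A1 and LUM were called lower, with log2 fold changes of -0.34, -2.41 and -3.86. In bulk RNA, fewer cells that express a gene and less of its RNA per cell cannot be told apart.

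Most of the NMD factors that could be tested were lower in the double knockout. Of 8 tested, 5 fell (UPF2, UPF3B, SMG9, SMG1 and SMG6), 1 rose (UPF1) and 2 did not pass (SMG5 and UPF3A). SMG8 had no counts and was not tested. Calls are from edgeR's quasi-likelihood test with Benjamini-Hochberg adjustment over all 14180 genes at a threshold of 0.05. By that rule 57.1% of all tested genes were called, 28.5% lower and 28.6% higher, against 75% of the 8 factors called and 62.5% called lower. The median log2 fold change of the 8 genes was -0.26, against 0.0063 for all tested genes. CPM values of the groups did not overlap for the 5 genes that fell, against 30.3% of all tested genes without overlap and lower, and 60.6% without overlap in either direction. With the libraries scaled by spike-in RNAs instead, the median gene shifted by -0.11, the same 5 factors were called lower, and UPF1 lost its call. Of all 14180 tested genes, 4236 were called lower with that scaling.

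**Figure D1:**
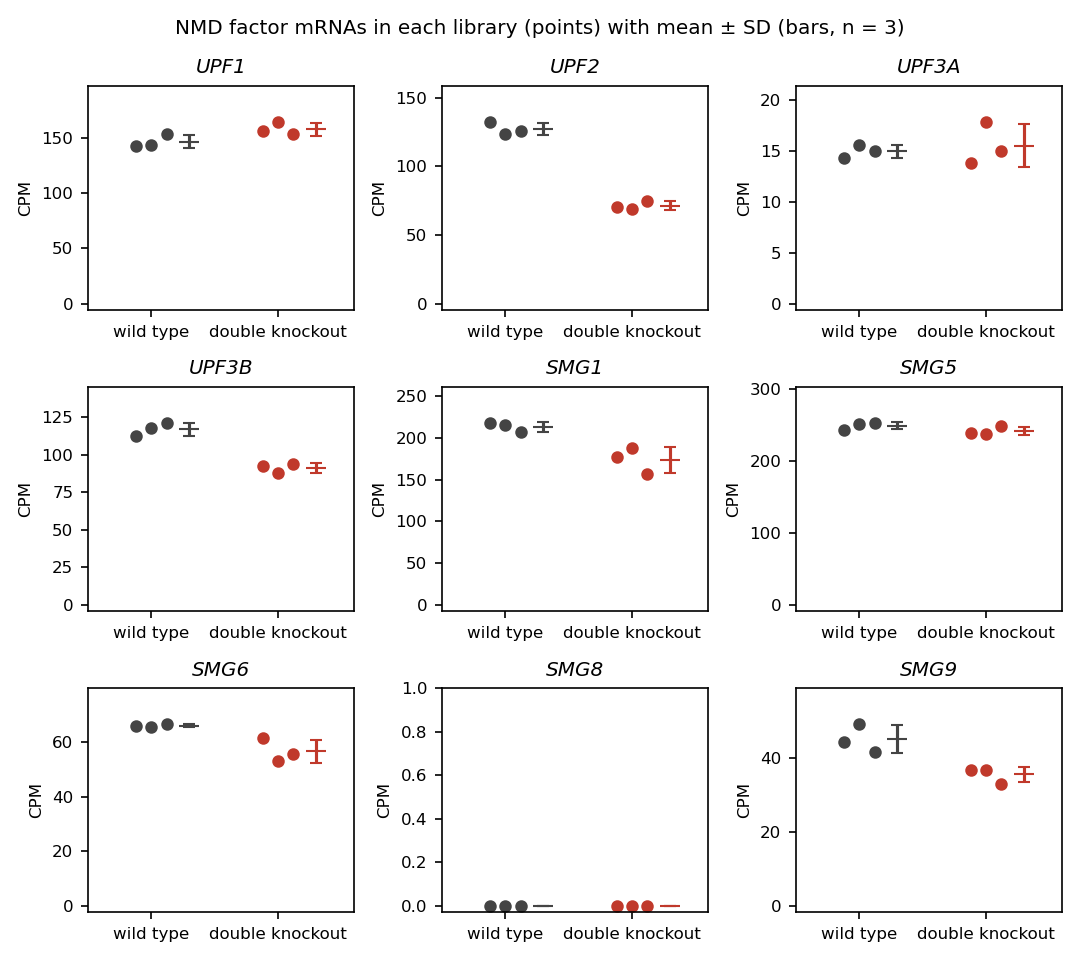
CPM of each NMD factor gene in the 3 wild type (grey) and 3 double knockout (red) libraries, with the vertical axis starting at 0. Points are libraries and bars are mean ± SD (n = 3). UPF2 shows the widest gap, with all wild type libraries at or above 124 CPM and all double knockout libraries at or below 75.2 CPM, while SMG8 is at 0 in all 6 libraries.

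UPF2, the adaptor that joins UPF1 to UPF3 proteins, showed the largest change of the NMD factors tested. UPF2 (ENSG00000151461.19, chromosome 10, 11920022 to 12043170, hg38) measured 132, 124 and 126 CPM in the wild type libraries (replicates 1 to 3), against 70.4, 69.1 and 75.2 CPM in the double knockout libraries. Every double knockout library was below every wild type library, and the gap was several times the spread within either group. UPF2 fell by 0.83 on the log2 scale (SE 0.05, edgeR adjusted p = 6.41e-47), with group means of 127 ± 4.30 and 71.6 ± 3.21 CPM (SD, n = 3 each), so that 56.2% of the wild type level was left. Its neighbours also fell: of 15 tested genes within 2 Mb, 11 fell and 1 rose, with a median log2 fold change of -0.38. With that median subtracted, UPF2 kept -0.46, and only 1 of the 15 neighbours had a lower fold change than UPF2. The part of the neighbourhood in the change of UPF2 was not tested.

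UPF1, the central helicase, was the only NMD factor called higher, and its call rested on few libraries. UPF1 (ENSG00000005007.12, chromosome 19, 18831938 to 18868236) stood at 142, 144 and 153 CPM in the wild type libraries, against 156, 164 and 153 CPM with both genes knocked out. Wild type replicate 3 reached the level of the lowest double knockout library, so the groups overlapped. UPF1 rose by 0.11 (SE 0.04, edgeR adjusted p = 0.019), with group means of 146 ± 5.90 and 157 ± 5.70 CPM (SD, n = 3 each). The call was lost without wild type replicate 1 (edgeR adjusted p = 0.129), wild type replicate 2 (0.0975) or double knockout replicate 2 (0.168), in a range of 1.36e-04 to 0.987 over 15 alternatives. Genes around UPF1 rose more than UPF1 did: 36 of 68 tested genes within 2 Mb rose and 8 fell (median 0.21), and with the median subtracted UPF1 turned to -0.095.

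The ratio of UPF2 to UPF1 within a library hardly depends on how libraries are scaled. On the log2 scale it was -0.11, -0.21 and -0.28 in wild type and -1.14, -1.24 and -1.02 in double knockout. UPF2 thus had 0.871 counts for each UPF1 count in wild type and 0.456 in double knockout, a difference of -0.93 between the mean log2 ratios. The two-sided exact permutation test gave p = 0.1, adjusted p = 0.1 over 3 ratios tested, and 0.1 is the smallest p that 3 against 3 libraries allow.

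UPF3B and UPF3A are paralogs that bridge UPF2 and the exon junction complex, of which UPF3B is the more active in NMD. UPF3B (ENSG00000125351.11, chromosome X, 119805311 to 119852998) stood at 112, 118 and 121 CPM in the wild type libraries, against 92.6, 87.7 and 93.8 CPM with both genes knocked out. These groups did not overlap, and UPF3B fell by 0.36 (SE 0.05, edgeR adjusted p = 1.77e-11), with group means of 117 ± 4.45 and 91.4 ± 3.20 CPM (SD, n = 3 each). Its neighbourhood on chromosome X showed no common fall: of 28 tested genes within 2 Mb, 10 rose and 7 fell (median 0.02), and none of the 28 had a lower fold change than UPF3B. UPF3A (ENSG00000169062.14, chromosome 13, 114281584 to 114305817) was scarcer, at 14.3, 15.6 and 15.1 CPM in the wild type libraries, against 13.8, 17.9 and 15.0 CPM with both genes knocked out. Its groups overlapped, and its log2 fold change of 0.06 (95% interval -0.18 to 0.30, edgeR adjusted p = 0.699) did not pass. With 302 and 293 counts in all per group, the interval of UPF3A still allows a change in either direction of the size seen for UPF1 or SMG5.

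Reads from the exons of these paralogs can be told apart. Their coding sequences were 66.3% identical over 1316 aligned bases, and no stretch of 50 bases was shared between their transcripts. The most alike coding stretch of 60 bases within an exon of each shows how far they differ, with UPF3B bases that differ from UPF3A in capitals (GENCODE release 29 transcripts, hg38, UPF3A at chr13:114291634-114291693 on the plus strand and UPF3B at chrX:119841199-119841258 on the minus strand).
UPF3A: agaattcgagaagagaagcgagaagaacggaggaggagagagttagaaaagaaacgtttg
UPF3B: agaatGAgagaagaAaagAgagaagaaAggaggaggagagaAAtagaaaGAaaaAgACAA
Even here 14 of 60 bases differ. The log2 ratio of UPF3A to UPF3B was -2.95, -2.89 and -2.98 in wild type and -2.72, -2.28 and -2.62 in double knockout, without overlap. In counts, UPF3A amounted to 0.130 of UPF3B in wild type and 0.172 in double knockout, a difference of 0.40 between the mean log2 ratios (two-sided exact permutation p = 0.1, adjusted p = 0.1).

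SMG1, the kinase that phosphorylates UPF1, fell, and so did most of the pseudogenes that carry parts of its sequence. SMG1 (ENSG00000157106.16, chromosome 16, 18804853 to 18926454) stood at 217, 215 and 207 CPM in the wild type libraries, against 177, 187 and 156 CPM with both genes knocked out. All double knockout libraries were lower than all wild type libraries, although they spread more among themselves. SMG1 fell by 0.30 (SE 0.04, edgeR adjusted p = 7.07e-12), with group means of 213 ± 5.65 and 174 ± 15.7 CPM (SD, n = 3 each). Within 2 Mb of SMG1, 4 of 20 tested genes rose and 5 fell (median 0.06), and 1 of the 20 had a lower fold change than SMG1. Within 5 Mb the median of 67 genes was -0.10, and SMG1 kept -0.19 with it subtracted.

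The SMG1 pseudogenes all lie on chromosome 16, as SMG1 does. In the longest coding transcript of SMG1, 17.2% of its stretches of 50 bases also occur in a pseudogene transcript. A coding stretch of SMG1 (chr16:18885092-18885151, minus strand) is shown with its counterparts in the 3 pseudogenes with the most counts. Bases that differ from SMG1 are in capitals. The stretch was picked because these 3 nearly match it, so it does not show how alike the copies are elsewhere.
SMG1: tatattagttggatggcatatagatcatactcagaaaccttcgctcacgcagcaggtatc
SMG1P7: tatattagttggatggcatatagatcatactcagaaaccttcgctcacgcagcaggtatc
SMG1P3: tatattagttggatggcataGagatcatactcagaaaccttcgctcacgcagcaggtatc
SMG1P2: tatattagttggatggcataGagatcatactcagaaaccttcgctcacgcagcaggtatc
SMG1P7 is identical to SMG1 over these 60 bases, and SMG1P3 and SMG1P2 differ at 1 base each. Of 7 pseudogenes, 5 passed the filter and 4 fell: SMG1P1 by 0.81, SMG1P2 by 0.78, SMG1P7 by 0.34 and SMG1P3 by 0.31 on the log2 scale (edgeR adjusted p = 0.0116, 7.28e-08, 0.00899 and 0.0291). SMG1P5 had a log2 fold change of -0.29 (edgeR adjusted p = 0.128), and SMG1P4 and SMG1P6 had at most 17 counts in any library. Of the exon bases of SMG1P1 and SMG1P3, 49.9% and 24.4% lie inside other genes of their strand and were not counted. Summing SMG1 with all 7 pseudogenes gave -0.33 for the sum, called lower as well. The sources used here do not give how reads with several alignments were counted, so the values of SMG1 and its pseudogenes are uncertain to that extent.

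SMG8 and SMG9 form a complex with SMG1 and restrain its kinase activity. SMG9 (ENSG00000105771.13, chromosome 19, 43727992 to 43754990) stood at 44.4, 49.2 and 41.8 CPM in the wild type libraries, against 36.8, 36.8 and 33.1 CPM with both genes knocked out. The groups did not overlap, and SMG9 fell by 0.35 (SE 0.08, edgeR adjusted p = 2.50e-05), with group means of 45.1 ± 3.75 and 35.6 ± 2.12 CPM (SD, n = 3 each). The region fell alike: 40 of 72 tested genes within 2 Mb fell and 3 rose (median -0.32), and with that median subtracted SMG9 kept -0.029. UPF1 and SMG9 lie on different parts of chromosome 19, and each moved in the direction of its neighbours.

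SMG8 (ENSG00000167447.12, chromosome 17, 59209400 to 59215247) was listed at 0 in all 6 libraries, and this 0 is no measure of its mRNA. It lies inside AC099850.2, a gene model on the same strand that runs from 59197566 to 59215226, except for its last 21 bases. Across the table, all 546 protein-coding genes that lie wholly inside another gene on the same strand had 0 counts in every library, among them 185 that share no exon base with the gene around them. By contrast, 32.0% of 860 protein-coding genes inside a gene on the opposite strand only, and 20.5% of 7140 that overlap no gene, had 0 counts. The counts therefore cover whole genes, introns included, keep the strands apart, and leave out reads where genes of the same strand overlap. Of the exon bases of SMG8, 99.4% lie within AC099850.2, and SMG8 cannot be compared here. AC099850.2 itself had 134, 146 and 108 counts in wild type and 80, 95 and 86 in double knockout, a fall of 0.47 (SE 0.12, edgeR adjusted p = 2.26e-04). By the same counting its reads come from outside the overlap and are no measure of SMG8. Of its 557 exon bases, 0 lie outside the exons of SMG8 and of another gene, PRR11. These counts are therefore an uncertain measure of AC099850.2 too.

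SMG5 and SMG6 lead to the separate ways in which a targeted mRNA is destroyed. SMG6, the endonuclease, fell slightly, whereas SMG5, an adaptor for deadenylation and decapping, did not pass. SMG6 (ENSG00000070366.13, chromosome 17, 2059839 to 2303771) stood at 66.0, 65.6 and 66.6 CPM in the wild type libraries, against 61.4, 53.3 and 55.7 CPM with both genes knocked out. Wild type libraries lay close together and above all double knockout libraries. SMG6 fell by 0.22 (SE 0.06, edgeR adjusted p = 0.00134), with group means of 66.1 ± 0.526 and 56.8 ± 4.21 CPM (SD, n = 3 each). The fall ran against its surroundings, where 20 of 52 tested genes within 2 Mb rose and 9 fell (median 0.08), so that SMG6 stood at -0.30 with the median subtracted. HIC1 and SRR overlap the ends of SMG6 on the opposite strand, and both rose, by 1.22 and 0.57 on the log2 scale (edgeR adjusted p = 6.64e-04 and 2.16e-07).

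SMG5 (ENSG00000198952.8, chromosome 1, 156249224 to 156282825) was among the best measured of the factors, at 244, 252 and 253 CPM in the wild type libraries, against 239, 238 and 249 CPM with both genes knocked out. The groups overlapped, and the log2 fold change of -0.044 had a 95% interval of -0.12 to 0.03 (edgeR adjusted p = 0.299). A fall of SMG5 as large as that of SMG6 is outside this interval. Its log2 ratio to SMG6 can be read without scaling: SMG6 over SMG5 was -1.88, -1.94 and -1.92 in wild type and -1.95, -2.15 and -2.15 in double knockout. The groups did not overlap, with a difference of -0.17 between the means (two-sided exact permutation p = 0.1, adjusted p = 0.1).

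**Figure D2:**
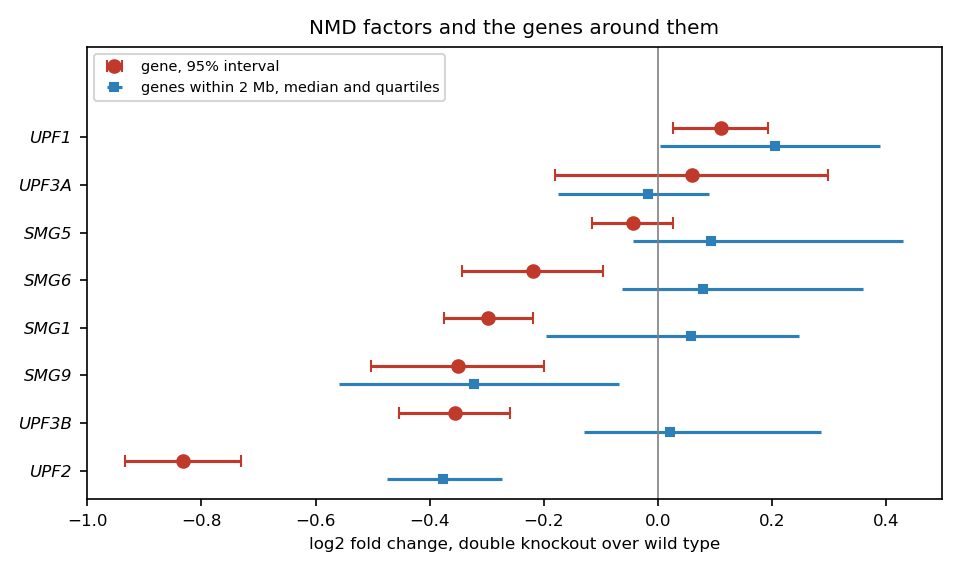
Log2 fold change of each tested NMD factor gene (red, with its 95% interval) above the median and quartiles of the tested genes within 2 Mb of it (blue). UPF3B, SMG1 and SMG6 lie to the left of the quartiles of their neighbours, SMG9 lies within them, and UPF2 lies to the left of neighbours that themselves had a median of -0.38.

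The levels of the factors differed widely. Per kilobase of annotated exon in wild type, SMG5 was the highest (47.0 ± 0.913 CPM per kilobase, SD, n = 3), followed by UPF3B (38.0 ± 1.44), UPF2 (21.6 ± 0.728) and UPF1 (17.0 ± 0.686). SMG1 (8.19 ± 0.217), SMG6 (6.26 ± 0.0499), SMG9 (5.69 ± 0.473) and UPF3A (2.60 ± 0.115) followed on the same scale. No neighbours in this order overlapped in their wild type libraries, although the lowest SMG6 value (6.21) and the highest SMG9 value (6.20) almost met. In double knockout the order was the same except that UPF1 (18.3 ± 0.663) stood above UPF2 (12.1 ± 0.543). With the length of the transcript that has the longest coding sequence in place of all exons, UPF1 (27.5) stood above UPF2 (22.9) in wild type already, and UPF3A came to 6.28 on that scale. In double knockout UPF3A (6.52) then stood above SMG9 (6.46), and their libraries overlapped. Exon lengths depend on the annotated transcripts, and reads from introns count towards the level.

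Long, many-exon transcripts were common among the 9 genes. Their longest coding transcripts had a median of 19 exons and 3048 coding bases, against 10 exons and 1467 coding bases for 12173 tested protein-coding genes. The median 3′ UTR was 1363 bases long against 1017, and 6 of 9 factors were above that value, led by SMG1 with 4716 and SMG9 with 3604 bases. The m6A methyltransferase prefers sites around the letters GGACT, often near stop codons. On the transcript strand of these longest coding transcripts, GGACT occurred in all 9 genes and in 91.6% of tested protein-coding genes. Matches per kilobase came to 0.419 in UPF3A and 1.75 in SMG5, with a median of 0.939 over the tested protein-coding genes. UPF2, with the largest fall, had 0.898 per kilobase, and UPF1, the gene that rose, had 1.32. The match nearest the stop codon is shown for these genes with GGACT in capitals (chr10:11920822-11920846, minus strand, after the stop codon of UPF2, and chr19:18866087-18866111, plus strand, before that of UPF1).
UPF2: gggggctccaGGACTacagtagaaa
UPF1: cgctctcacaGGACTccacgtacca
Methylation was not measured in these libraries, and a match is only a run of letters.

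Across the 6 libraries, the genes whose log2 CPM ran most like that of UPF2 were SLIT2 (Pearson r = 0.9995), GPHN (0.9994) and FAM171A1 (0.9993), on chromosomes 4, 14 and 10. Their log2 fold changes were -0.38, -0.61 and -0.81, and FAM171A1 shares its chromosome with UPF2. The 6 libraries form 2 groups, and 1640 of 10502 genes compared had an r over 0.95.

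The partners of the NMD factors were described through 4 lists with 35 genes in all, each of which passed the filter. These lists were chosen with earlier results of these data known, which limits how their shares can be read. Of these, 21 fell, 5 rose and 9 did not pass, with a median log2 fold change of -0.13 against 0.0063 for all tested genes. The share that fell was 60%, against 28.5% of all tested genes, and the share called in either direction was 74.3%, against 57.1%. With upper quartile scaling 12 of the 35 fell, against 3227 of all 14180 tested genes. With spike-in scaling none of the partners rose, against 2133 of the 14180. The 5 rises became 2 without wild type replicate 1, 3 without wild type replicate 2 and 3 without double knockout replicate 1. In 9 of the 26 called genes the call was lost when some single library was left out, and 15 falls and 2 rises were called in every such fit. An alternative with the median of genes within 2 Mb subtracted was added after seeing the data. With it the median of the 35 genes was -0.15, and 24 of them were below 0. The same count over all tested genes is not given here. NBAS had only 1 tested neighbour, and ICE1 and TTI2 had 6 each.

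The exon junction complex marks spliced mRNAs and tells the NMD machinery that a stop codon lies upstream of a junction. Of 11 genes of the complex and its partners, 6 fell, 1 rose and 4 did not pass. The share called was 63.6%, near the 57.1% of all tested genes, and 54.5% fell, against 28.5%. ACIN1, a subunit that binds the complex at its periphery, fell by 0.38 (from 336 ± 4.88 to 259 ± 4.27 CPM, SD, n = 3 each), although genes around it tended upwards (median 0.14). ICE1 fell by 0.35, and the core subunits CASC3 and EIF4A3, the helicase that clamps the complex on RNA, fell by 0.26 and 0.19. CWC22, which brings EIF4A3 to the spliceosome, fell by 0.20, and MAGOHB, a core subunit, fell by 0.20, though the latter was not called without wild type replicate 1 or double knockout replicate 3 (edgeR adjusted p = 0.0718, log2 fold change -0.16 without the latter). RNPS1 rose by 0.16, but not with spike-in scaling (0.05, edgeR adjusted p = 0.655). It moved with the genes within 2 Mb of it (median 0.14), whereas EIF4A3 and MAGOHB fell among genes with medians of 0.16 each. MAGOH, RBM8A, SAP18 and PYM1 had log2 fold changes between -0.072 and 0.049.

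SMG1 belongs to the PIKK family of large kinases, which need the TELO2, TTI1 and TTI2 chaperone complex and the ATPases RUVBL1 and RUVBL2 to fold and assemble. DHX34 is a helicase that promotes phosphorylation of UPF1, and NBAS takes part in NMD at the endoplasmic reticulum. Of these 7 genes, 5 fell (71.4%, against 28.5% of all tested genes), 1 rose and 1 did not pass. RUVBL1 fell by 0.65 (from 206 ± 4.12 to 131 ± 1.15 CPM, SD, n = 3 each), in a part of chromosome 3 where 23 of 32 tested genes within 2 Mb fell (median -0.44). DHX34 fell by 0.51 and RUVBL2 by 0.17, both on a part of chromosome 19 with medians of -0.25 and -0.21 among their neighbours. NBAS fell by 0.16 and TTI1 by 0.12, while TELO2 rose by 0.22 and TTI2 stood at -0.11 (edgeR adjusted p = 0.417). Genes within 2 Mb had a median of 0.15 around TELO2 and of 0.04 around TTI1. The call of NBAS was lost without wild type replicate 1 or double knockout replicate 3 (0.115 without the latter). That of TTI1 was lost without wild type replicate 3 or double knockout replicate 1 or 2 (0.097 without double knockout replicate 1), and that of TELO2 without wild type replicate 1 (log2 fold change 0.13, adjusted p = 0.0603) and with spike-in scaling (0.401).

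Termination factors and cap-binding and tail-binding proteins had a list median of -0.048, nearer to 0 than those of the other 3 lists. Of 7 genes, 3 fell, 2 rose and 2 did not pass, few genes to set against the 28.5% of all tested genes that fell and the 28.6% that rose. PABPC1, the main poly(A)-binding protein of the cytoplasm and an antagonist of NMD when near a stop codon, fell by 0.11 (from 843 ± 34.4 to 781 ± 24.6 CPM, SD, n = 3 each). NCBP2, a subunit of the nuclear cap-binding complex, fell by 0.17 and ETF1, the release factor that recognises stop codons, fell by 0.087. Genes within 2 Mb had a median of -0.15 around NCBP2 and of 0.07 around ETF1. PABPC4 rose by 0.26 and GSPT2, a paralog of the release factor GTPase GSPT1, rose by 0.23. GSPT1 stood at -0.048 (edgeR adjusted p = 0.201) and NCBP1 at 0.10 (0.0519). The call of NCBP2 was lost without double knockout replicate 2 (0.054), and that of ETF1 without wild type replicate 2 or 3 or double knockout replicate 3 (0.113 without the last). GSPT2 was called only with double knockout replicate 2 left out among the fits without 1 library (0.195 without double knockout replicate 3). With spike-in scaling PABPC4 (0.15, edgeR adjusted p = 0.137) and GSPT2 (0.12, 0.482) were not called.

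Decapping and exonuclease partners remove what NMD has marked. Of 10 genes, 7 fell (70%, against 28.5% of all tested genes), 1 rose and 2 did not pass. DCP1A, an activator of the decapping enzyme DCP2, fell by 0.66 (from 85.6 ± 1.17 to 54.3 ± 3.68 CPM, SD, n = 3 each), and XRN1, the exonuclease that degrades decapped mRNA, fell by 0.52. Both lie on chromosome 3 among genes that fell, with medians of -0.36 and -0.53 within 2 Mb, so that DCP1A kept -0.30 and XRN1 0.0020 with these subtracted. DCP2 fell by 0.27, EDC3 by 0.15 and the helicase DDX6 by 0.13. DCP1B, a paralog of DCP1A, fell by 0.21, and its call was lost without wild type replicate 2 or 3 or double knockout replicate 1 or 2 (0.11 without double knockout replicate 1). MOV10, a helicase that associates with UPF1, rose by 0.13, and its call was lost without wild type replicate 1 or 2 or double knockout replicate 1 or 3 (log2 fold change 0.077 and adjusted p = 0.233 without wild type replicate 2) and with spike-in scaling (0.904). PNRC2 stood at -0.11 (edgeR adjusted p = 0.0632) and EDC4 at -0.038 (0.61), the latter with 21.2% of its exon bases inside another gene of its strand.

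**Figure D3:**
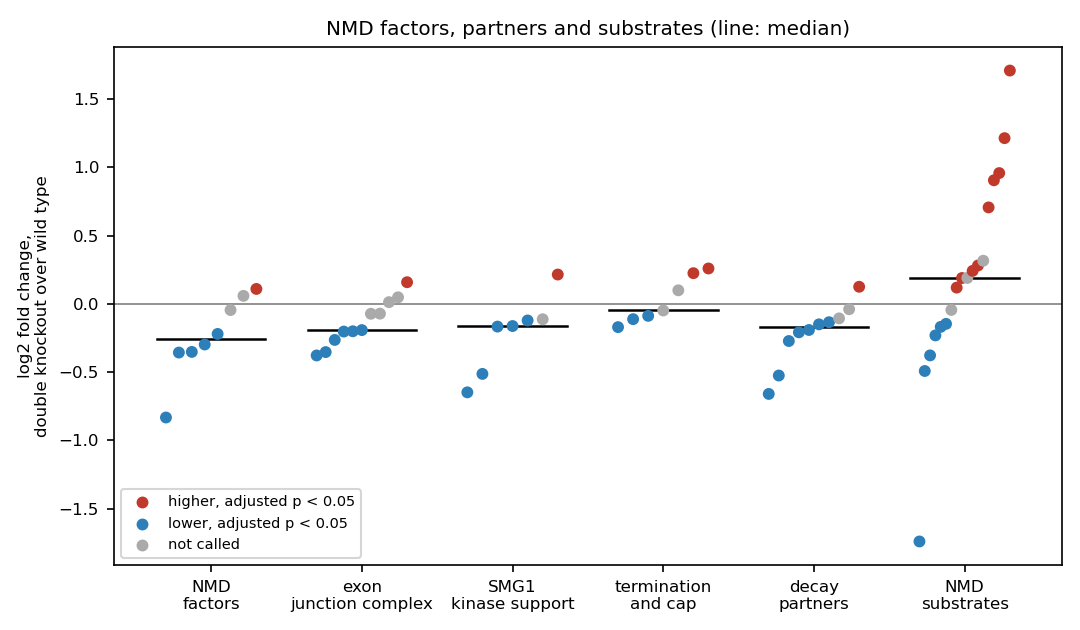
Log2 fold change of each tested gene, with 1 point per gene, for the 8 tested NMD factors, the 4 partner lists and 18 transcripts known as NMD substrates. Colours show the call and black lines the list medians, which lie between -0.26 and -0.048 for the factors and partners and at 0.19 for the substrates.

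Transcripts that NMD is known to degrade were taken as a list from background knowledge, with earlier results of these data known. Of 18 such transcripts, 9 rose, 6 fell and 3 did not pass, with a median of 0.19. The share called in either direction was 83.3%, against 57.1% of all tested genes. Those that fell made up 33.3% of the list, near the 28.5% of all tested genes, and 28.6% of all tested genes rose. Those that rose most were CDKN1A, a cell cycle inhibitor (by 1.71, from 30.6 ± 2.80 to 101 ± 2.94 CPM, SD, n = 3 each), and the stress-induced ATF3 (by 1.22), GADD45A (by 0.96), GADD45B (by 0.91) and UPP1 (by 0.71). TBL2 rose by 0.28. The noncoding snoRNA host transcripts, which carry stop codons early in their sequence, did not rise as a group: GAS5 fell by 0.23, SNHG1 by 0.17, SNHG15 by 0.49 and ZFAS1 by 0.15, while SNHG12 rose by 0.24. Parts of SNHG1, SNHG12, SNHG15 and ZFAS1 (15.3%, 9.35%, 3.65% and 20.9% of their exon bases) lie under small RNA genes of the same strand, where reads were not counted for them. GAS5 overlapped no gene of its strand. Reads from introns count towards all these values, so they need not follow the spliced transcript that NMD degrades. SLC7A11, a cystine transporter gene, fell by 1.74, and ATF4, the stress transcription factor whose mRNA has upstream reading frames, fell by 0.38. NAT9 rose by 0.19 and TNFRSF10B rose by 0.12, and DDIT3 (0.32, edgeR adjusted p = 0.0855), MAP3K14 (0.19, 0.11) and ERN1 (-0.044, 0.688) did not pass. Of the exon bases of DDIT3, 8.03% lie inside other genes of its strand and were not counted. The share was 53.8% for its whole span, introns included. The call of ZFAS1 was lost without double knockout replicate 1 (log2 fold change -0.064, edgeR adjusted p = 0.301). Those of NAT9 and TNFRSF10B were lost without wild type replicate 1 or double knockout replicate 1, with log2 fold changes of 0.15 and 0.071 (edgeR adjusted p = 0.0792 and 0.216) without the latter. With spike-in scaling 5 substrates rose and 6 fell, against 2133 and 4236 of all 14180 tested genes. There SNHG12 (edgeR adjusted p = 0.296), TBL2 (0.172), NAT9 (0.54) and TNFRSF10B (0.894) lost their calls. UPP1 rose in a stretch of chromosome 7 whose 3 tested neighbours all fell. Within 2 Mb of GAS5, 9 of 15 tested genes fell, and near SLC7A11 7 of 11 fell. Near TBL2, 16 of 32 rose and 1 fell. With the medians of these neighbours subtracted, GAS5 stood at -0.045, TBL2 at -0.0058 and SLC7A11 at -1.23. CDKN1A then stood at 1.73, UPP1 at 1.39 and ATF3 at 1.32. With the median of genes within 2 Mb subtracted, the median of the 18 transcripts was 0.12. By this alternative 7 of them were below 0, a count not given here for all tested genes. This alternative was added after seeing the data.

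**Figure D4:**
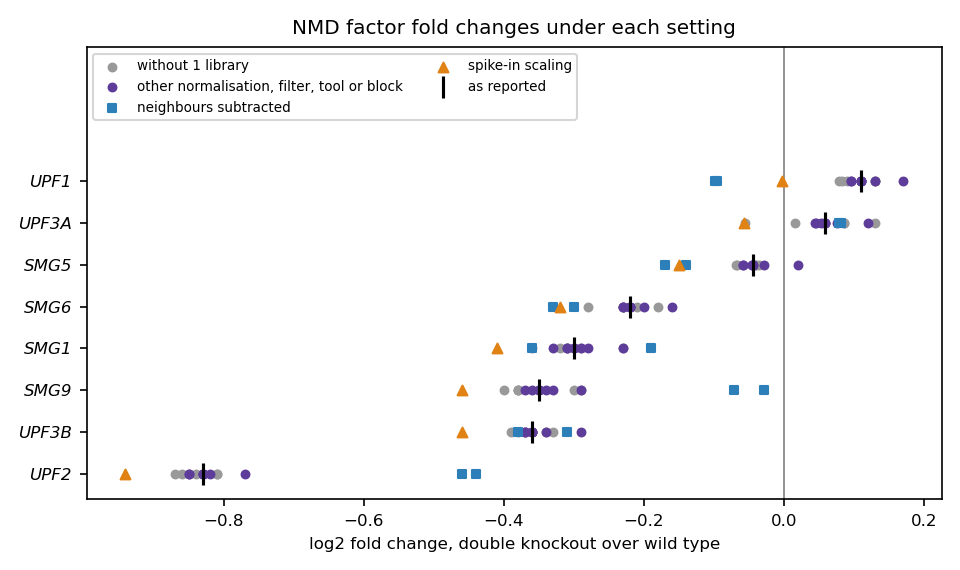
Log2 fold change of each tested NMD factor gene under the reported setting (black line) and each alternative: fits without 1 library (grey), other normalisations, filters, tools or a replicate term (purple), spike-in scaling (orange) and neighbours within 2 or 5 Mb subtracted (blue). UPF2, UPF3B, SMG1, SMG6 and SMG9 are below 0 under all of them, with SMG9 nearest to 0 at -0.029, whereas UPF1, UPF3A and SMG5 have values on both sides of 0.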

How the data were processed

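Reads had been trimmed with cutadapt 2.10, aligned with STAR 2.7.6a to hg38 and counted with featureCounts (version not given in the sources used here), per the submitters' processing notes. The deposited values were raw counts per gene, with spike-in entries left out of library sizes. All 58721 gene identifiers matched GENCODE release 29, which gave names, positions and transcripts. Columns named HEK293G6 were taken as wild type because no other genotype remained in the labels. Double knockout was compared with wild type by glmQLFit (robust) and glmQLFTest of edgeR 4.0.16 (R 4.3.3), after filterByExpr (minimum count 10, minimum total 15) and TMM scaling. Intervals of fold changes are 95% intervals of that fit. On simulated counts at the depth of these libraries the fit recovered 67.0% of 88 genes changed by 0.5 on the log2 scale. It recovered 96.4% of 111 changed by 1, among 14173 tested. The simulation changed few genes and gave every gene the same spread, whereas 57.1% of tested genes were called in the data. Changes smaller than 0.5 were not simulated.

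Alternatives were DESeq2 1.42.0, limma 3.58.1 (voom), other scalings including GFP and FLuc spike-ins, other filters, a replicate term and leaving out each library. Ratios used log2 CPM with a prior count of 2, and levels per kilobase the union of annotated exons. Members and lists were chosen with earlier results of these data known. Named were all 9 factors, the targets, up to 6 called genes per direction of each list, and genes overlapping a factor; the remaining list genes were added after their values were seen. The labels call the replicates independent biological replicates. A planned ratio of SMG8 to SMG9 was not computed, since SMG8 was at 0. The values of 1 gene of the decay partner list are not reported here, though the list counts include it.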

Additional observations from a re-analysis of the deposited data

Results flagged for a closer look

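The table also holds counts for an Rluc spike-in, which the labels do not name among the RNAs added, and which no comparison here used: 2005 counts over 6 libraries, 271 to 378 in each.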

How the results depend on the processing

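UPF2, UPF3B, SMG1, SMG6 and SMG9 stayed called lower in all 15 fits tried, and their number was 5 in each. UPF1 was 0.095 with DESeq2 (adjusted p = 0.165), 0.096 without the low-count filter (0.0954) and -0.0022 with spike-in scaling (0.987), so that 0 factors were higher there. Without single libraries UPF1 ranged from 0.078 to 0.13, the number of higher factors from 0 to 1, and UPF3A from -0.056 to 0.13. UPF3A was -0.057 with spike-in scaling and SMG5 0.02 with upper quartile scaling, neither called. With the median of genes within 2 and 5 Mb subtracted, UPF1 became -0.095 and -0.098, UPF2 -0.46 and -0.44, SMG5 -0.14 and -0.17, SMG6 -0.30 and -0.33 and SMG9 -0.029 and -0.072, and SMG1 became -0.19 at 5 Mb. Among the 35 partners, 12 fell with upper quartile scaling, against 3227 of all 14180 tested genes. The partners that rose numbered 0 with spike-in scaling, 3 with DESeq2, 3 without the filter and 2 to 5 without single libraries. The substrates that rose numbered 5 with spike-in scaling. Over all genes tested, 4055 rose in the reported fit and 2133 with spike-in scaling, and that scaling rests on 316 to 440 spike-in counts per library. By transcript length, chosen after seeing the data, wild type levels per kilobase were 27.5 (UPF1), 22.9 (UPF2), 6.28 (UPF3A), 49.3 (UPF3B), 13.2 (SMG1), 54.7 (SMG5), 11.1 (SMG6) and 8.19 (SMG9). The cause of these differences was not tested. Replicate numbers did not pair the libraries (correlations 0.0106, 0.0166 and 0.0085, and 0 of 6 libraries correlated best with their own number). The replicate block left UPF1 at 0.11, gave an exact paired permutation p = 0.25 for each ratio, the smallest that 3 pairs allow, and ended no call of a factor.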
